A study of Mus musculus with 3 samples.

Results

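A set of 10 genes of histone H3 lysine 9 (H3K9) methylation and retroelement silencing was followed in mouse embryonic stem cells (ESCs), the cultured pluripotent cells of the early embryo. They are Trim28, Setdb1, Suv39h1, Suv39h2, Ehmt1, Ehmt2, Cbx1, Cbx3, Cbx5 and Mphosph8. They were chosen by name for what their proteins do, with earlier results of these data known. The counts of every annotated transcript that carries the symbol were added within each library. These are 10 of the 24006 gene symbols counted, and all 10 were found. Polyadenylated RNA had been sequenced from 3 clones of 1 genetic background, C57BL/6x129sV, described as isogenic and male, with 1 library per clone. Clone WT26 is wildtype, clone KO2-3 is DAXX-/- and clone KO1-44 is ATRX-/-, and both knockouts were made by CRISPR. All 3 clones grew with serum and leukaemia inhibitory factor, on irradiated feeder cells in early passages and later on gelatin. Each genotype is thus represented by 1 clone and 1 library, so a difference between genotypes cannot be told apart from a difference between clones or libraries, and no test across genotypes was possible.

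Methylation of H3K9 marks silent chromatin. SETDB1 is brought to endogenous retroviruses by TRIM28, which in turn is brought by KRAB zinc finger proteins that read the retroviral DNA. SUV39H1 and SUV39H2 trimethylate H3K9 at the satellite repeats around centromeres, and EHMT1 and EHMT2, also known as GLP and G9a, form a complex that writes the mono- and dimethylated states. The HP1 proteins, encoded by Cbx5 (HP1 alpha), Cbx1 (HP1 beta) and Cbx3 (HP1 gamma), bind methylated H3K9 through a chromodomain. MPHOSPH8 carries a chromodomain too and is part of the human silencing hub (HUSH), which silences young retroelements. ATRX, a chromatin remodeller, and DAXX, its histone chaperone partner, place histone H3.3 in such chromatin.

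By the limit explained below, Cbx1 was the 1 HP1 gene called lower in ATRX-/- cells against wildtype. Its coding sequence is therefore first set beside that of its relatives Cbx3 and Cbx5. In-frame windows without gaps, each within a single exon, were compared with Cbx5. The stretch shown is the window in which Cbx1 and Cbx3 together differ least from Cbx5. It is 90 bases long, lies in exon 5 of Cbx5 (chr15:103199692-103199781, minus strand), exon 5 of Cbx1 (chr11:96806626-96806715, plus strand) and exon 6 of Cbx3 (chr6:51482490-51482579, plus strand) in GRCm38, and was read from GENCODE M21 transcripts. Capitals mark the bases that differ from Cbx5.
Cbx5: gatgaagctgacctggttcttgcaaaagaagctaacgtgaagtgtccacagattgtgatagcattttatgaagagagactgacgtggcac
Cbx1: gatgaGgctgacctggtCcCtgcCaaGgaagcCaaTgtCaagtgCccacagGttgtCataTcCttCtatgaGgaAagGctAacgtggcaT
Cbx3: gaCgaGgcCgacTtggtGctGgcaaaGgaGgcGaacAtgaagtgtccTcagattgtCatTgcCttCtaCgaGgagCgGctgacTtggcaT
Even in this stretch Cbx1 differed from Cbx5 at 19 bases and Cbx3 differed at 21. The longest run shared with Cbx5 within it was 11 bases for Cbx1 and 10 bases for Cbx3. Over whole transcripts the longest run shared by any pair of HP1 genes was 20 bases, that of Ehmt1 and Ehmt2 was 20 bases and that of Suv39h1 and Suv39h2 was 26 bases. A read longer than these runs that matches exactly therefore belongs to 1 paralogue. The sources used here do not give the read length.

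The promoters of the 2 members that were lower in ATRX-/- cells by the limit explained below, Trim28 and Cbx1, are shown beside 1 promoter of Suv39h1, the member with the highest fold there. They come from RefSeq (GRCm38.p6), end at the base before the annotated start, and stop short of annotated exons. Capitals mark the motifs searched on both strands: the GC box GGGCGG, the CCAAT box CCAAT, the E box CACGTG and the NRF1 core (GCGCA and GCGC with any 1 base between them), none of which contains another.
Trim28 promoter, chr7:13023902-13024151, plus strand: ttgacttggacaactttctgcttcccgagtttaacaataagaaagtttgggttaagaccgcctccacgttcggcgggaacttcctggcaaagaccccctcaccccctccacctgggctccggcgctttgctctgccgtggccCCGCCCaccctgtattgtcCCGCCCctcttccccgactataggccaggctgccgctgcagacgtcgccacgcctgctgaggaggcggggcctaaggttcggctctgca
Cbx1 promoter, chr11:96788885-96789126, plus strand: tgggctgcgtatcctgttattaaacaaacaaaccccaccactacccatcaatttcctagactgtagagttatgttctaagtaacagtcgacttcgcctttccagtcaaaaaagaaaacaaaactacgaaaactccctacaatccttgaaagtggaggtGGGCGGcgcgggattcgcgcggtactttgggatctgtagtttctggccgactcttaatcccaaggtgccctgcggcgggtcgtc
Suv39h1 promoter, chrX:8074761-8075010, minus strand: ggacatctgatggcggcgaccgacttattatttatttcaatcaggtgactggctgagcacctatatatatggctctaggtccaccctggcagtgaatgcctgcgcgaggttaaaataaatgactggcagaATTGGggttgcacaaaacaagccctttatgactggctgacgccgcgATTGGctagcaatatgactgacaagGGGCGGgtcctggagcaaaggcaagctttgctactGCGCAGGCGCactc
The Trim28 promoter held 2 GC boxes and the Cbx1 promoter held 1, with none of the other 3 motifs in either. The Suv39h1 promoter shown held 1 GC box, 2 CCAAT boxes and 1 NRF1 core. Another RefSeq promoter of Suv39h1 (chrX:8074362-8074611) is not printed because it overlaps annotated exons. It held 1 GC box and 0 of the other 3 motifs. Of the 14 RefSeq promoters of the 10 members, each searched over 250 bases before the start, 13 held a GC box, 4 a CCAAT box, 3 an E box and 4 an NRF1 core. Among 32817 promoters searched over the same length these shares were 32.7%, 33.8%, 6.02% and 3.73%. The member promoters were 49.6% to 84.0% G or C. The shares were not matched for base composition, and some members have more than 1 promoter, so no enrichment is read from them. A match describes the letters in the window and does not show that a factor binds there.

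Depth and sample checks can be given briefly. The libraries held between 11224100 and 13988376 reads on transcripts. Atrx had 4582, 3576 and 1800 reads in wildtype, DAXX-/- and ATRX-/- cells, and as library-scaled counts (CPM) ATRX-/- cells kept 41.2% of the wildtype level. Daxx stood at 77.5, 57.0 and 70.2 CPM, from 1125, 623 and 972 reads, so that DAXX-/- cells kept 73.6% of its wildtype level. Each targeted gene was lowest in the library labelled as its knockout. All 8 ESC markers were present in every library, at summed levels of 4872, 5433 and 5269 CPM in wildtype, DAXX-/- cells and ATRX-/- cells. Summed fibroblast markers, 11 genes that could show feeder cells, were 33.1, 10.6 and 17.8 CPM, with Lum at 0 in every library and Col3a1, Postn and Dcn at 0 in both knockouts. Summed primitive endoderm markers, 7 genes, were 39.3, 2.66 and 14.6 CPM, with Sox17 at 0 in DAXX-/- cells, and 6 trophoblast markers summed to 64.3, 54.4 and 46.1 CPM, with Cdx2 and Elf5 at 0 in wildtype, Hand1 in DAXX-/- cells and Elf5 in ATRX-/- cells. The part of such cells in the differences below was not tested. In RNA from whole cultures, fewer cells of a type and less RNA per cell cannot be told apart.

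All 10 members were expressed in every library. Expressed per length as reads per kilobase, scaled as CPM (RPKM), every one of them lay above the wildtype median of 9.79 RPKM over 12759 measured genes. Trim28 stood highest at 517 RPKM in wildtype, 536 in DAXX-/- cells and 401 in ATRX-/- cells. It was followed in wildtype by Cbx3 at 200 RPKM, Cbx1 at 138, Cbx5 at 84.6, Mphosph8 at 54.8, Ehmt2 at 38.0, Setdb1 at 31.8, Ehmt1 at 23.4, Suv39h2 at 15.7 and Suv39h1 at 10.8. That order was the same in all 3 libraries, with 0 neighbours whose counting intervals overlapped. It does depend on the length used. With the length of each gene's most abundant transcript, Mphosph8 came before Cbx5 and Suv39h1 before Suv39h2 in all 3 libraries. The ratio of Trim28 to Suv39h1 was 47.8 in wildtype, 48.1 in DAXX-/- cells and 28.7 in ATRX-/- cells.

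**Figure D1:**
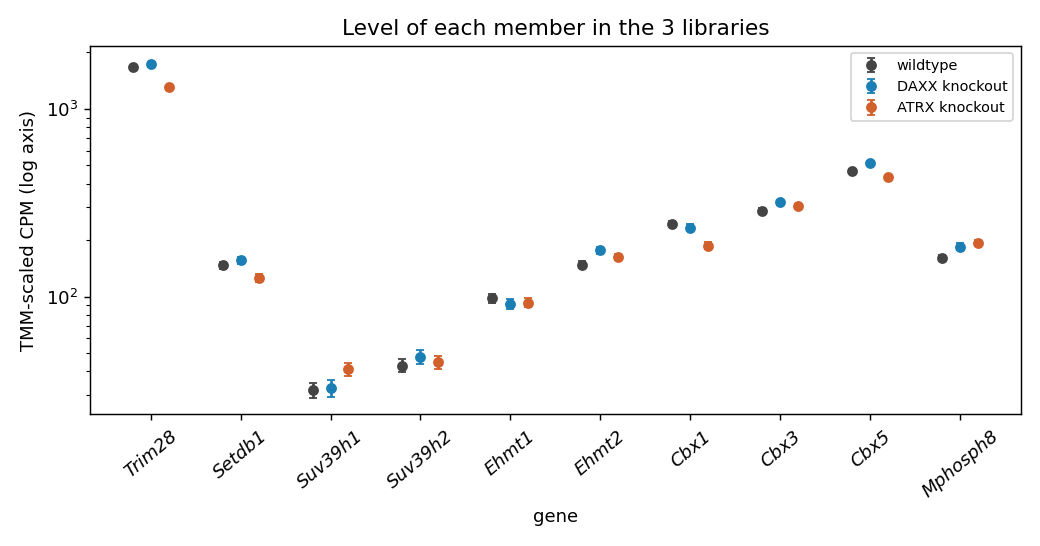
Level of each of the 10 genes in the wildtype, DAXX knockout and ATRX knockout libraries, as TMM-scaled CPM on a log axis, with bars for the 95% counting interval. Trim28 and Cbx1 are lowest in ATRX-/- cells, at 1302 and 187 CPM, and Suv39h1 is highest there, at 41.0 CPM.

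Counts were brought to a common scale by the trimmed mean of M values (TMM), and the fold of each gene was given a 95% interval from its read counts. This interval covers counting error only. A call, higher or lower, needed an interval that lay in full beyond 1.2-fold, and a stricter limit of 2-fold was applied alongside. In DAXX-/- cells against wildtype, 0 of the 10 members were higher and 0 were lower, where 5.59% of 13151 tested genes were higher and 6.27% lower. In ATRX-/- cells against wildtype, 0 were higher and 2, Trim28 and Cbx1, were lower, where 7.97% of 13230 tested genes were higher and 7.02% lower. Between the knockouts, 0 members were higher and 1, Trim28, was lower in ATRX-/- cells, where 6.85% of 12991 tested genes were higher and 5.07% lower. At 2-fold, 0 members were called in any of the 3 comparisons, against 2.04%, 1.84% and 1.13% of genes. A count of 2 among 10 genes is not read here as a property of the group.

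The median log2 fold of the 10 members was 0.12 in DAXX-/- cells and 0.00 in ATRX-/- cells against wildtype, where all tested genes had medians of 0.02 and 0.02. Against DAXX-/- cells, ATRX-/- cells had a member median of -0.10, where all tested genes had 0.00. The span of a gene, the log2 ratio of its highest to its lowest library, had a median of 0.26 over the members and 0.32 over the 12759 measured genes. Spans of the members ran from 0.10 for Ehmt1 to 0.42 for Trim28, and 7 of 10 lay below the median of all measured genes. Counting error widens the span of genes with few reads, and all 10 members lay above the median level in wildtype. The comparison therefore does not show that the members are steadier than other genes. The 2 knockouts share the wildtype library, so their folds against it are not independent.

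**Figure D2:**
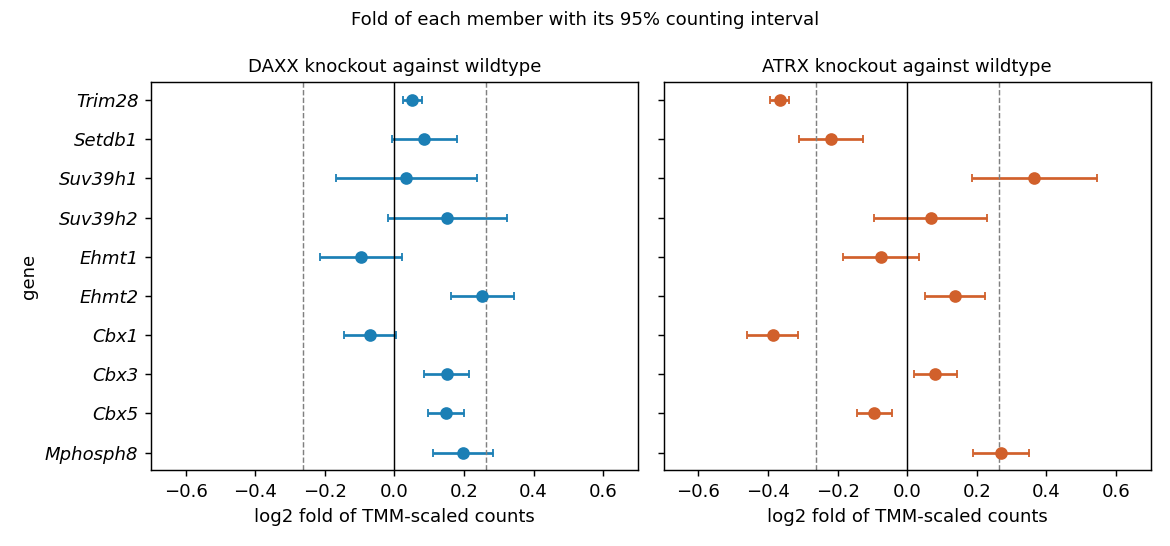
Log2 fold of TMM-scaled counts of each of the 10 genes against wildtype, in DAXX-/- cells and in ATRX-/- cells, with the 95% counting interval and dashed lines at 1.2-fold. In ATRX-/- cells the intervals of Trim28 and Cbx1 lie wholly below the lower line, and in DAXX-/- cells no interval lies wholly beyond either line.

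Trim28, the corepressor that links KRAB zinc finger proteins to SETDB1 and HP1, had 24359 reads in wildtype, 18986 in DAXX-/- cells and 18023 in ATRX-/- cells. Scaled for depth these were 1678, 1738 and 1302 CPM. ATRX-/- cells lay apart from the other 2 libraries, which were close together. In ATRX-/- cells Trim28 fell by 0.37 on the log2 scale (-0.39 to -0.34), to 77.6% of the wildtype level, and against DAXX-/- cells it fell by 0.42 (-0.45 to -0.39). DAXX-/- cells differed from wildtype by 0.05 (0.02 to 0.08). That small value turned to -0.04 when libraries were scaled by total counts, which moves every fold in that comparison by -0.09. Trim28 (chr7:12999114-13031035, plus strand) is counted on 1 transcript, and 0 of its 36-base words occurred in a counted transcript of another gene.

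Setdb1 encodes the methyltransferase that TRIM28 brings to retroviruses. It had 2132, 1703 and 1747 reads in wildtype, DAXX-/- cells and ATRX-/- cells, or 147, 156 and 126 CPM. As for Trim28, its lowest level was in ATRX-/- cells, but the difference was smaller. Its log2 fold there was -0.22 (-0.31 to -0.13) against wildtype and -0.31 (-0.40 to -0.21) against DAXX-/- cells, and neither interval lay wholly beyond 1.2-fold. DAXX-/- cells gave 0.09 (-0.01 to 0.18), an interval that reaches 0. Of the words of Setdb1 (chr3:95323525-95357202, minus strand), 8.25% also occurred in other counted genes, Cers2 and Gm4349. Cers2 itself had a log2 fold of -0.34 (-0.52 to -0.16) in ATRX-/- cells from 593 and 446 reads, and how much it adds to the Setdb1 count was not tested.

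The SUV39H genes, writers of pericentromeric H3K9 trimethylation, were the least expressed members. Suv39h1 had 462, 356 and 568 reads, or 31.8, 32.6 and 41.0 CPM in wildtype, DAXX-/- cells and ATRX-/- cells. It was highest in ATRX-/- cells, with a log2 fold of 0.37 (0.19 to 0.55) against wildtype. This was as large as the difference of Trim28, but with 462 reads in wildtype the interval was wide and reached inside 1.2-fold. Its 2 annotated transcripts both had intervals above 0 in that comparison, at 0.29 and 0.44. Of their words, 84.5% and 94.9% also occur in the other transcript, so these folds are not separate evidence. In DAXX-/- cells the fold of the gene was 0.03 (-0.17 to 0.24), which turned to -0.06 with total-count scaling.

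Suv39h1 (chrX:8061171-8074760, minus strand) overlaps Gm14820 on the other strand, and 16.8% of its words also occurred in other genes. Use of strand in counting was not stated, so reads of the pair cannot be told apart in the overlap. Gm14820 had 83, 64 and 66 reads, with a log2 fold of -0.26 (-0.75 to 0.22) in ATRX-/- cells. Suv39h2 (chr2:3455815-3475031, minus strand) had 622, 520 and 622 reads, or 42.8, 47.6 and 44.9 CPM. Its log2 folds were 0.15 (-0.02 to 0.32) in DAXX-/- cells and 0.07 (-0.09 to 0.23) in ATRX-/- cells, and both intervals hold 0. Of its words, 8.08% were shared, with the neighbouring gene Dclre1c. Dclre1c had 208, 130 and 152 reads, with log2 folds of -0.27 (-0.60 to 0.06) in DAXX-/- cells and -0.38 (-0.70 to -0.08) in ATRX-/- cells.

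Per length, Suv39h1 made up 40.8% of the SUV39H pair in wildtype, 39.6% in DAXX-/- cells and 45.5% in ATRX-/- cells. With the length of the most abundant transcript the shares were 53.6%, 51.6% and 58.7%, so which of the pair is the more abundant depends on the length used. ATRX-/- cells had the highest Suv39h1 share under either length. As a share of the pair's reads, Suv39h1 took 42.6% (39.7 to 45.6, exact binomial 95% interval), 40.6% (37.4 to 44.0) and 47.7% (44.9 to 50.6), and the wildtype and ATRX knockout intervals overlap.

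The EHMT pair moved little. Ehmt2, which encodes G9a (chr17:34898469-34914052, plus strand), had 2149, 1927 and 2257 reads, or 148, 176 and 163 CPM in wildtype, DAXX-/- cells and ATRX-/- cells. It was higher in both knockouts than in wildtype, with log2 folds of 0.25 (0.16 to 0.34) and 0.14 (0.05 to 0.22), the first interval reaching past 1.2-fold and the second inside it. For DAXX-/- cells this was the highest fold of the 10 members, and all 4 of its transcripts had intervals above 0, with folds from 0.21 to 0.32. At least 99.2% of the words of each also occur in another Ehmt2 transcript, so these folds are not separate evidence. Ehmt1, which encodes GLP (chr2:24789928-24919614, minus strand), had 1422, 1001 and 1288 reads, or 98.0, 91.7 and 93.0 CPM. Its folds of -0.10 (-0.21 to 0.02) and -0.07 (-0.18 to 0.03) have intervals that hold 0, and it had the smallest span of the members. Total-count scaling moves the ATRX-/- interval of Ehmt2 onto 0, at 0.07 (-0.02 to 0.16), and both Ehmt1 intervals off it, at -0.19 (-0.31 to -0.07) and -0.14 (-0.25 to -0.03). Per length, Ehmt1 made up 38.1%, 32.7% and 35.1% of the pair. As a share of reads this was 39.8% (38.2 to 41.4) in wildtype and 34.2% (32.5 to 35.9) in DAXX-/- cells, intervals that do not overlap, while the 36.3% (34.7 to 37.9) of ATRX-/- cells lay between them.

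Among the HP1 genes, only Cbx1 was called lower in ATRX-/- cells against wildtype. Cbx1 (HP1 beta, chr11:96789127-96808640, plus strand) had 3554 reads in wildtype, 2547 in DAXX-/- cells and 2593 in ATRX-/- cells, or 245, 233 and 187 CPM. Its level was lowest in ATRX-/- cells, and the other libraries lay close together. It fell by 0.39 on the log2 scale (-0.46 to -0.31) in ATRX-/- cells, to 76.5% of wildtype, and differed by -0.07 (-0.14 to 0.00) in DAXX-/- cells, or by -0.16 (-0.24 to -0.09) with total-count scaling. Between the knockouts the fold was -0.32 (-0.40 to -0.24), which did not lie wholly beyond 1.2-fold.

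Cbx3 (HP1 gamma, chr6:51470360-51483704, plus strand) had 4158, 3471 and 4196 reads, or 286, 318 and 303 CPM. It was slightly higher in both knockouts, with log2 folds of 0.15 (0.08 to 0.22) in DAXX-/- cells and 0.08 (0.02 to 0.14) in ATRX-/- cells. Scaled by total counts these were 0.06 (-0.01 to 0.12) and 0.01 (-0.05 to 0.07), and both intervals then hold 0. Of its words, 14.0% were shared, with Als2cr12, whose 173, 126 and 161 reads gave folds of -0.05 and -0.04. Cbx5 (HP1 alpha, chr15:103191544-103239816, minus strand) had 6752, 5630 and 6033 reads, or 465, 516 and 436 CPM. It was highest in DAXX-/- cells, at 0.15 (0.10 to 0.20), and lowest in ATRX-/- cells, at -0.09 (-0.14 to -0.04). All 4 of these intervals lay inside 1.2-fold. Between the knockouts Cbx5 gave -0.24 (-0.30 to -0.19), an interval that overlaps that of Cbx1, and Cbx3 gave -0.07 (-0.13 to -0.0035).

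As shares of all HP1 transcripts per length, Cbx1 made up 32.7% in wildtype, 29.2% in DAXX-/- cells and 26.0% in ATRX-/- cells. Cbx3 made up 47.2%, 49.7% and 53.5%, and Cbx5 20.0%, 21.2% and 20.5%. Cbx3 was thus the most abundant HP1 transcript and its share was highest in ATRX-/- cells, where that of Cbx1 was lowest. By share of reads Cbx1 took 24.6% (23.9 to 25.3), 21.9% (21.1 to 22.6) and 20.2% (19.5 to 20.9), and these 3 intervals do not overlap. By reads alone Cbx5 was the largest, at 46.7% in wildtype, on a main transcript of 8803 bases.

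**Figure D3:**
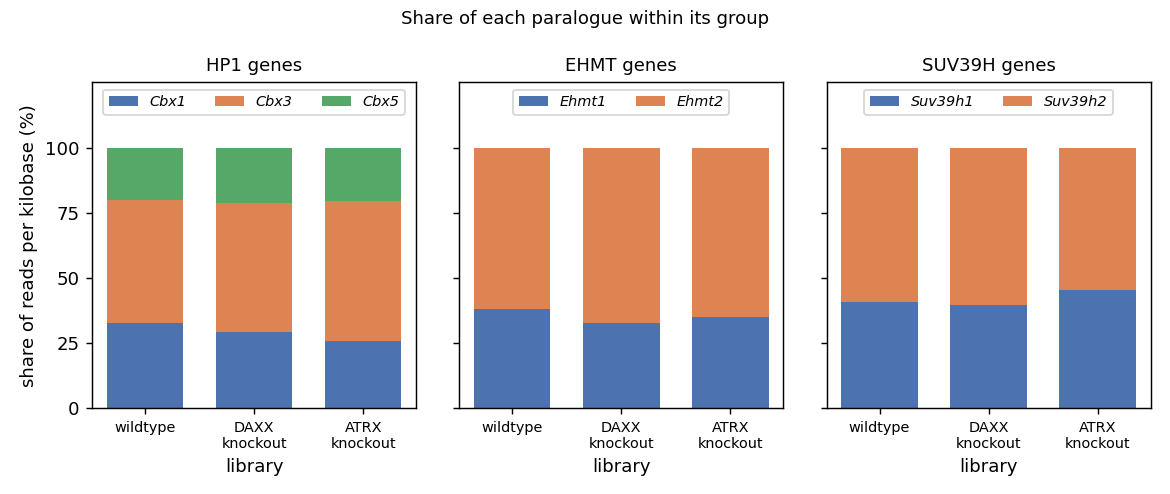
Share of each paralogue within the HP1, EHMT and SUV39H genes in the 3 libraries, as percent of the reads per kilobase of the group. The Cbx1 share goes from 32.7% in wildtype to 26.0% in ATRX-/- cells, and Cbx3 from 47.2% to 53.5%.

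The reads of Cbx1 fell on 4 annotated transcripts. By read count, not scaled for length, most were on Cbx1-204, at 2377 bases the longest of the 4. It is annotated as a target of nonsense-mediated decay, the pathway that removes transcripts with an early stop. It held 61.4% of the Cbx1 reads in wildtype, 61.2% in DAXX-/- cells and 63.7% in ATRX-/- cells. Of its words, 60.5% occur in no other Cbx1 transcript, most of them in a stretch of 1418 bases at the 3′ end (chr11:96806732-96808149). The coding sequence of the protein-coding Cbx1-203 ends within that stretch, at chr11:96806757. Whether the reads there come from Cbx1-204 itself was not tested. The protein-coding transcripts Cbx1-203, Cbx1-201 and Cbx1-202 held 17.3%, 12.0% and 9.31% in wildtype. All 4 had intervals below 0 in ATRX-/- cells against wildtype. The log2 fold was -0.33 (-0.43 to -0.24) for Cbx1-204 and -0.45 (-0.63 to -0.27) for Cbx1-203. It was -0.42 (-0.64 to -0.21) for Cbx1-201 and -0.59 (-0.84 to -0.33) for Cbx1-202. Taking Cbx1-204 alone for the gene, its interval no longer lies wholly beyond 1.2-fold. Reads that fit several transcripts are spread over them, which blurs such shares.

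Mphosph8, the chromodomain subunit of HUSH (chr14:56668248-56697430, plus strand), had 2337, 2016 and 2689 reads, or 161, 185 and 194 CPM in wildtype, DAXX-/- cells and ATRX-/- cells. It was lowest in wildtype, with log2 folds of 0.20 (0.11 to 0.28) and 0.27 (0.19 to 0.35), both intervals above 0 and neither wholly beyond 1.2-fold. Of its words, 11.0% were shared, with Gm16973, which had 196, 138 and 158 reads and folds of -0.10 (-0.42 to 0.23) and -0.24 (-0.55 to 0.07).

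Genes that work with the members were taken from 6 lists, and the same limits were applied. For each list below, the shares of all tested genes past 1.2-fold are the background. A call is harder to reach for a gene with few reads, and this background was not matched to the lists for read number. They were 5.59% higher and 6.27% lower in DAXX-/- cells, and 7.97% higher and 7.02% lower in ATRX-/- cells. In ATRX-/- against DAXX-/- cells they were 6.85% higher and 5.07% lower. The lists were chosen with earlier results of these data known. The other H3K9 methyltransferases and the partners of the members' enzymes held 11 genes, 10 of them tested. At 1.2-fold, 6 were higher and 0 lower in DAXX-/- cells, and 3 were higher in ATRX-/- cells with 0 lower, with medians of 0.38 and 0.29. The member methyltransferases themselves had no call. Atf7ip, the SETDB1 partner that stabilises the enzyme in the nucleus, had 1207 reads in wildtype, 1825 in DAXX-/- cells and 2188 in ATRX-/- cells. It rose by 1.01 on the log2 scale (0.90 to 1.11) in DAXX-/- cells and by 0.93 (0.82 to 1.03) in ATRX-/- cells, about the 2-fold limit but not wholly beyond it. Setdb1 in the same libraries gave 0.09 and -0.22. Chosen after their values were seen, the other 2 genes called higher in ATRX-/- cells were Atf7ip2 at 0.61 (0.33 to 0.90) and Uhrf1, a reader of hemimethylated DNA and methylated H3K9, at 0.42 (0.37 to 0.47). Both were also called higher in DAXX-/- cells, at 0.76 and 0.33. Scaling by total counts ends the DAXX-/- calls of Uhrf1, at 0.23 (0.18 to 0.29), and Cdyl2, at 0.33, which leaves 4 called higher, and the ATRX-/- call of Atf7ip2, at 0.54 (0.26 to 0.83), which leaves 2. The fold nearest to a fall was that of Prdm2, a PR-domain methyltransferase, at -0.22 (-0.35 to -0.08) and -0.16 (-0.28 to -0.04).

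In the list of HUSH and MORC genes, 7 of 8 were tested. At 1.2-fold, 2 were lower and 0 higher in DAXX-/- cells, and 1 was lower and 0 higher in ATRX-/- cells, with medians of -0.18 and -0.09. Fam208b, also known as Tasor2, a relative of the HUSH subunit TASOR, had 2032 reads in wildtype, 583 in DAXX-/- cells and 1028 in ATRX-/- cells. It fell by 1.39 (-1.53 to -1.26) in DAXX-/- cells, past 2-fold, and by 0.92 (-1.02 to -0.81) in ATRX-/- cells. It was the 1 gene of the 6 lists past the 2-fold limit. The other gene called lower in DAXX-/- cells, named after its values were seen, was Morc4, with 75, 30 and 71 reads and a fold of -0.91 (-1.57 to -0.28). Counting just the most abundant transcript per gene, or thinning counts to the smallest library, left 1 gene of this list called lower there. Morc1, which takes part in retrotransposon silencing in the male germline, gave 0.31 (0.13 to 0.48) in DAXX-/- cells and -0.09 (-0.27 to 0.09) in ATRX-/- cells. Against DAXX-/- cells, Fam208b was higher in ATRX-/- cells at 0.48 (0.33 to 0.62) and Morc4 at 0.90 (0.27 to 1.57).

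Of the KRAB zinc finger genes and TRIM28 cofactors, all 16 were tested. In DAXX-/- cells 2 were higher and 0 lower, and in ATRX-/- cells 4 were higher and 0 lower, with medians of 0.04 and 0.04. Zfp819, a KRAB zinc finger gene, had 205, 240 and 299 reads and rose by 0.64 (0.36 to 0.91) and 0.61 (0.35 to 0.88). Trim24, a relative of TRIM28 that also restrains retroelements, had 2065, 2037 and 3018 reads and rose by 0.39 (0.30 to 0.48) and 0.62 (0.53 to 0.70). In ATRX-/- cells Trim24 was thus higher while Trim28 was lower. Taking the most abundant transcript of each gene ends the call of Trim24 in DAXX-/- cells, at 0.34 (total-count scaling does too, at 0.30), and those of Zfp819, at 0.52 and 0.49. The further 2 calls in ATRX-/- cells against wildtype, named after their values were seen, were Zfp961 at 0.46 (0.34 to 0.57) and 2810474O19Rik at 0.46 (0.37 to 0.55). In ATRX-/- cells 2810474O19Rik was also higher against DAXX-/- cells, at 0.37 (0.27 to 0.47). Zfp57, which keeps imprints methylated with TRIM28, gave -0.05 (-0.11 to 0.01) and -0.17 (-0.23 to -0.11).

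All 12 HP1 partner genes were tested and 0 were called in either direction in either knockout, with medians of 0.07 and 0.13. Their extremes were Adnp2, a homeodomain protein, at 0.31 (0.19 to 0.43) and Mis12, a kinetochore subunit, at -0.28 (-0.46 to -0.10) in DAXX-/- cells, and Chaf1b, a subunit of the histone chaperone CAF-1, at 0.33 (0.21 to 0.45) in ATRX-/- cells. Of the H3K9 demethylases, 10 of 11 were tested, and 1 was higher in DAXX-/- cells, 0 were higher in ATRX-/- cells and 0 were lower in either, with medians of 0.10 and 0.13. The 1 was Kdm3b, which removes mono- and dimethylation, with 2559, 2619 and 2665 reads and a rise of 0.44 (0.36 to 0.52), where ATRX-/- cells gave 0.13 (0.05 to 0.21). Kdm7a gave -0.50 (-0.76 to -0.25) in DAXX-/- cells, Phf8 gave 0.39 (0.24 to 0.55) and Kdm3a gave -0.24 (-0.35 to -0.13) in ATRX-/- cells, all without a call. With total-count scaling Kdm7a was called lower, at -0.60.

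The chromobox genes of Polycomb, whose chromodomains read H3K27 in place of H3K9 methylation, numbered 5, and all 5 were tested in ATRX-/- cells against wildtype, where 0 were called in either direction at 1.2-fold. Cbx7, the main Polycomb chromobox gene of ESCs, had 1878, 1243 and 1554 reads and gave -0.18 (-0.29 to -0.08) and -0.21 (-0.30 to -0.11). Cbx6 gave 0.22 (0.09 to 0.35) in DAXX-/- cells, without a call. Cbx8, with 12, 7 and 26 reads, gave 1.18 (0.15 to 2.30) in ATRX-/- cells and was called higher there against DAXX-/- cells, at 1.55 (0.31 to 3.00), a call that ended with thinned counts at 1.41.

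**Figure D4:**
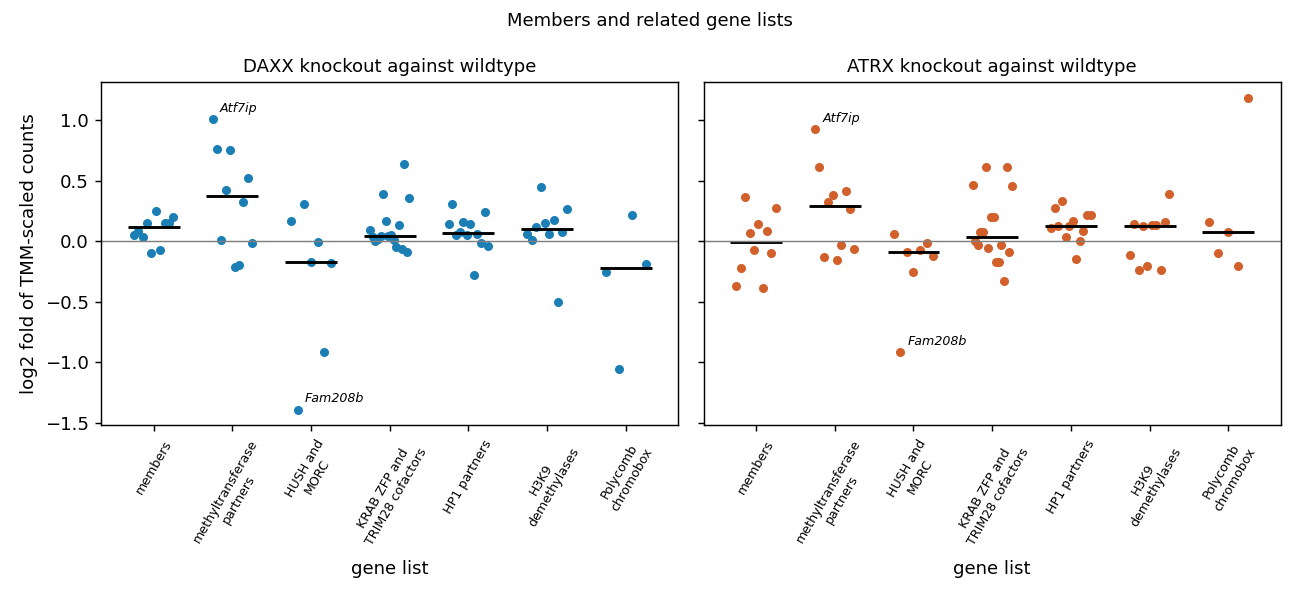
Log2 fold against wildtype of each tested gene of the members and of 6 lists of related genes, in DAXX-/- cells and in ATRX-/- cells, with a bar at the median of each group. The members lie between -0.39 and 0.37, Atf7ip lies at 1.01 and 0.93, and Fam208b at -1.39 and -0.92.

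The retroelements that these proteins act on were counted on 5 groups of consensus sequences, scaled as the genes were. Intracisternal A particles (IAP), long terminal repeat retroviruses held down by TRIM28 and SETDB1 in ESCs, had 3520, 9324 and 8061 reads over 31 sequences in wildtype, DAXX-/- cells and ATRX-/- cells. Their log2 folds against wildtype were 1.82 (1.76 to 1.87) and 1.26 (1.21 to 1.32). ETn and MusD elements, over 4 sequences, gave 0.70 (0.64 to 0.75) and 0.51 (0.46 to 0.57). Leukaemia virus-like elements had 849, 2151 and 820 reads and gave 1.75 (1.64 to 1.87) in DAXX-/- cells and 0.02 (-0.12 to 0.16) in ATRX-/- cells. MERVL, a retrovirus transcribed at the onset of embryonic transcription, gave -0.27 (-0.37 to -0.18) and -0.61 (-0.71 to -0.52).

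L1 elements, which lack long terminal repeats and are silenced in part by HUSH, had 24341, 23636 and 16516 reads and gave 0.37 (0.34 to 0.39) and -0.49 (-0.52 to -0.46). Set beside the members, IAP reads were higher in both knockouts, while Trim28 gave 0.05 and -0.37 and Setdb1 gave 0.09 and -0.22. In DAXX-/- cells, where IAP and leukaemia virus-like reads were highest, 0 of the 10 members had passed 1.2-fold. Among all genes tested there, 5.59% were higher and 6.27% lower, so this count is not read as a property of the group. In ATRX-/- cells, where Trim28 was lower, leukaemia virus-like reads were at the wildtype level within counting error. With 3 libraries no relation between members and retroelements was tested.

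**Figure D5:**
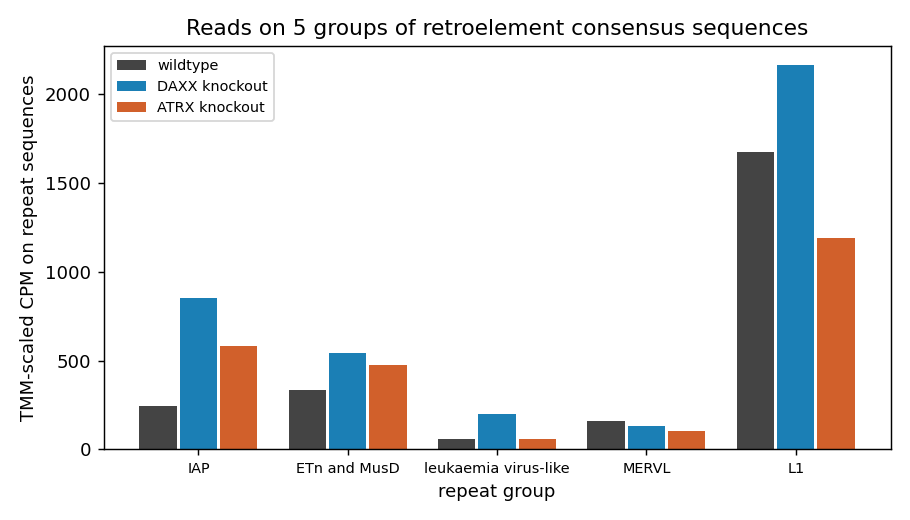
Reads on 5 groups of retroelement consensus sequences in the wildtype, DAXX knockout and ATRX knockout libraries, as TMM-scaled CPM. IAP reads stand at 242, 854 and 582 CPM, and L1 reads at 1677, 2164 and 1193 CPM.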

How the data were processed

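Polyadenylated RNA was sequenced in 3 libraries, 1 per genotype. The deposited values are unnormalised read counts per transcript and per repeat consensus sequence, beside each sequence's length. Bowtie 1.1.2, SAMtools and the GRCm38.p4 build are named per the submitters' processing notes. The sources used here give no alignment settings, read length, use of strand or treatment of reads with several positions. A second count column per the file layout, unaligned reads, was used for the aligned share alone (77.01% to 78.9%). No column was left unmapped.

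The members and lists were chosen with earlier results of these data known. Counts were summed per symbol and scaled by TMM over the 3 libraries (edgeR 4.0.16, R 4.3.3; factors 1.04, 0.973 and 0.990). With 0 residual degrees of freedom, no p-value was computed. Folds carry the exact conditional binomial (Clopper-Pearson) 95% interval, computed with scipy 1.17.1, which covers counting error only and treats PCR copies as independent. Genes needed at least 1 CPM in 1 of the 2 libraries compared. RPKM summed reads per kilobase over a gene's transcripts. The steps were tested on simulated data that held counting error only, which cannot show how they act on differences between clones or libraries.

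Named besides members, Atrx and Daxx are, from each list, genes past 2-fold in any comparison, and those with the largest rise and fall in each knockout by the interval bound nearest to no change. A gene that this rule names is not reported here. Zfp989 was not matched, and Tasor, Tasor2, Resf1, Sgo1 and Jhdm1d stand under another name. Gene positions and transcript sequences come from GENCODE M21 (GRCm38). Words are runs of 36 bases. Of 48843 counted transcripts, 41543 (85.1%) had an M21 sequence of the same length and entered the search for shared words.

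Alternatives were total-count and median-of-ratios scaling (DESeq2 1.42.0), no filter on low counts, the most abundant transcript per gene, counts thinned to the smallest library, a limit of 1.5-fold, and the length of the most abundant transcript for shares.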

Additional observations from a re-analysis of the deposited data

Results flagged for a closer look

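Of the members, 2 had folds of opposite direction in the 2 knockouts, with both counting intervals off 0. The share of all genes that meet this rule was not computed, so the count is not read as a property of the group. Trim28 and Cbx5 have the most reads of the members, so small folds clear 0 most easily for them. Trim28 had a log2 fold of 0.051 in DAXX-/- cells and -0.37 in ATRX-/- cells against wildtype. Cbx5 had 0.15 in DAXX-/- cells and -0.094 in ATRX-/- cells. With 1 library per genotype the difference between knockouts was not tested against replicate error. By counts alone, the log2 fold of ATRX-/- against DAXX-/- cells was -0.42 (-0.45 to -0.39) for Trim28 and -0.24 (-0.30 to -0.19) for Cbx5. The Trim28 value in DAXX-/- cells is small enough to turn to -0.04 when libraries are scaled by total counts, and then both its folds are below 0.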

How the results depend on the processing

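No paired analysis was possible because each genotype has 1 library, and for the same reason no library could be left out. Of 180 single values of the members over the alternatives, 168 kept both their direction and their side of the limit, 7 turned direction and 5 changed side. The setting without a filter and the limit of 1.5-fold use the same member folds as the main analysis. Their values could not turn direction, so the 168 are not a measure of stability. Scaling by total counts moves all folds of DAXX-/- cells against wildtype by -0.09 and of ATRX-/- cells by -0.07. In DAXX-/- cells it took the members' median to 0.024, Trim28 to -0.04, Setdb1 to -0.01, Suv39h1 to -0.06 and the genes called higher to 466. In ATRX-/- cells against wildtype Suv39h2 turned from 0.07 to -0.00067 with total counts and to -0.02 with the most abundant transcript. Between the knockouts Ehmt1 turned from 0.02 to -0.0043 with the most abundant transcript and to -0.00014 with thinned counts. At 1.5-fold, 0 members were lower in ATRX-/- cells against wildtype and 0 against DAXX-/- cells. Genes called higher and lower at that limit numbered 184 and 412 in DAXX-/- cells, 336 and 364 in ATRX-/- cells and 325 and 193 between the knockouts. With the most abundant transcript alone, 1 member was lower in ATRX-/- cells against wildtype, Cbx1 being at -0.34 (-0.43 to -0.25), and 2 against DAXX-/- cells, Setdb1 joining at -0.44. That Setdb1 value is of Setdb1-201, which had 720 reads in wildtype, beside 685 for Setdb1-202 and 727 for Setdb1-203. In the same comparison Setdb1-202 gave -0.26 (-0.43 to -0.10) and Setdb1-203 gave -0.21 (-0.38 to -0.04), neither wholly beyond 1.2-fold. With that transcript's length, shares in wildtype, DAXX-/- cells and ATRX-/- cells were 33.5%, 30.2% and 27.3% for Cbx1, 49.3%, 51.8% and 55.6% for Cbx3, and 17.2%, 18.0% and 17.1% for Cbx5. They were 30.1%, 25.3% and 27.1% for Ehmt1, 69.9%, 74.7% and 72.9% for Ehmt2, 53.6%, 51.6% and 58.7% for Suv39h1, and 46.4%, 48.4% and 41.3% for Suv39h2. Depth limited the SUV39H genes most among the members, since they had the fewest reads and the widest intervals. In the list of KRAB zinc finger genes and TRIM28 cofactors, genes called higher in DAXX-/- cells went from 2 to 0 with the most abundant transcript, and at 1.5-fold the methyltransferase list had 1 gene called higher in either knockout. The cause of these changes was not tested, beyond the stricter limit or smaller counts by which the alternatives are built.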
